A study of Mus musculus with 4 samples.

Results

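The genes described here are the simple epithelial keratins *Krt18*, *Krt8*, *Krt19* and *Krt7* and vimentin, *Vim*, in ID4-EGFP+ spermatogonia sorted from mouse testes at postnatal day 8. They are 5 of the 54920 genes listed in the count data, and all 5 were among the 23952 genes with enough reads to test. They were chosen on these same data, because *Krt18* had the largest increase in *Cnot3*-cKO cells among genes above a set average level. *Krt18* reached that level only through the *Cnot3*-cKO libraries. Differences of the 5 genes between the groups are therefore given as a description, with standard errors and without p-values.

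*Cnot3* encodes a subunit of the CCR4-NOT complex, which shortens the poly(A) tails of mRNAs, and the study asked how spermatogonial transcripts differ when it is deleted. *Cnot3*-cKO mice had both floxed *Cnot3* alleles (flox/flox), the *Id4-eGfp* reporter and the *Ddx4*-creER transgene. Control mice, labelled wild-type, carried *Cnot3* flox/flox and *Id4-eGfp* without *Ddx4*-creER. Both groups were injected with 4-OHT from day 1 to day 3 after birth, which activates the CreER recombinase, and *Ddx4* drives that recombinase in germ cells. Each group had 2 libraries, and the number of animals behind a library is not given in the sources used here. The study calls its replicates biological and gives more of them than the libraries analysed here. Where libraries are not from separate animals, the spread between them is technical only.

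Keratins are the intermediate filament proteins of epithelial cells. A type I keratin (*Krt18*, *Krt19*) pairs with a type II keratin (*Krt8*, *Krt7*), and the filament forms only from such pairs. *Krt8* and *Krt18* are the pair of single-layered epithelia, *Krt19* and *Krt7* mark ductal epithelia, and *Vim* is a type III protein that polymerises alone and is typical of mesenchymal cells. In the testis, vimentin filaments are a known feature of Sertoli cells, the somatic cells that enclose the germ cells, and keratin 18 is known in immature Sertoli cells.

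Total reads were 40957899 and 43378493 for the controls, and 22192964 and 28019626 for the *Cnot3*-cKO libraries, so the same level was read from fewer reads in *Cnot3*-cKO cells. *Cnot3* had 2362 and 2114 reads in controls, against 435 and 571 in *Cnot3*-cKO cells, a fall of the kind the labels call for (log2 fold change -1.48, standard error 0.13, edgeR quasi-likelihood test, adjusted p = 1.482e-05). Germ cell identity was checked with 10 pan-germ cell genes such as *Dazl*, whose summed level was 5967 and 6383 CPM (counts per 1000000 reads, with library sizes scaled by TMM factors) in controls, against 5304 and 5533 in *Cnot3*-cKO cells. Transcripts of somatic cells were present in both groups, to a degree that depended on the cell type and is given at the end. The 16 Sertoli cell markers summed to 470 and 477 CPM in controls, against 1456 and 1459 CPM in *Cnot3*-cKO cells. In sorted cells sequenced in bulk, fewer cells of a type and less RNA per cell cannot be told apart. A gene was called at an adjusted p under 0.01 with a fold change above 2. With 2 libraries per group, permuting the labels of 1 gene gives a two-sided exact p of at least 0.333, and all adjusted p values therefore depend on the dispersion shared across genes.

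The promoters of the 3 members with the largest differences are shown first, since *Krt18* and *Krt8* are divergently transcribed neighbours and *Vim* is on another chromosome. Each is 250 bases before and 50 bases from the RefSeq start, on GRCm38.p6, 5′ to 3′ on the strand of the gene. RefSeq starts differ from the GENCODE starts used for the gene coordinates and distances below, and the *Vim* window lies wholly within its GENCODE gene. Capitals mark matches to the motifs named in the next paragraph.
Krt18, chr15:102027966-102028265, forward strand: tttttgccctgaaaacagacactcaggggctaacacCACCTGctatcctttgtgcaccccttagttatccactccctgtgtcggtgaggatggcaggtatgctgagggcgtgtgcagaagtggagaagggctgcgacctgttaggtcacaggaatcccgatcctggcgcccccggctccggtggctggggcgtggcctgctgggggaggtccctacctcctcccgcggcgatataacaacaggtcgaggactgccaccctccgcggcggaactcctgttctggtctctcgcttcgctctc
Krt8, chr15:102004293-102004592, reverse strand: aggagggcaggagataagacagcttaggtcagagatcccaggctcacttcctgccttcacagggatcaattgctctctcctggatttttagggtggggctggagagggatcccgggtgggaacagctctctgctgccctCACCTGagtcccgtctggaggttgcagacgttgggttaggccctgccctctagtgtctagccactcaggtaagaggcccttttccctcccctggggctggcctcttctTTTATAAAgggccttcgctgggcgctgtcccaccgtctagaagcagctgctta
Vim, chr2:13574061-13574360, forward strand: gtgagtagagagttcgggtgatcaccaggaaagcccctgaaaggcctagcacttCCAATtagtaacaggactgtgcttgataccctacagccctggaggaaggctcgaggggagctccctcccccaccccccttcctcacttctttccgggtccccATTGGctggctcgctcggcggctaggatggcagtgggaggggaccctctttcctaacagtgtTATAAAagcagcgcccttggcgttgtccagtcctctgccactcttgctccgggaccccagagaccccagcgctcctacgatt

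RefSeq promoters matched 4 of the 5 members, and *Krt19* had no entry. Both strands were searched for the letters of 5 motifs, and the share of 27025 mouse promoters of this length that hold each is given as a reference. The TATA box TATAAA was in 14.2% of all promoters and the GC box GGGCGG in 35.9%. The AP-1 site TGANTCA was in 7.93% of them and the CCAAT box in 37.9%. The E-box CACCTG, of the kind bound by ZEB repressors, was in 20%. *Krt18* held 1 match, a CACCTG from base -214 to -209, counted from the start base as 0. *Krt8* also held a CACCTG, from -111 to -106, and overlapping TATAAA matches on both strands from -3 to 4. *Krt7* held a CACCTG and 4 matches to GGGCGG. The *Vim* window differed in its letters, with a TATAAA from -32 to -27 and 2 CCAAT matches and no CACCTG. None of the 4 windows held TGANTCA. Their GC content was 61.3% for *Krt18*, 58% for *Krt8*, 66.3% for *Krt7* and 59.3% for *Vim*, against a median of 52.7% over all promoters. *Krt18* had 17 CpG dinucleotides and *Krt8* had 6, where the median promoter had 7.

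*Krt18* (ENSMUSG00000023043.7), the type I partner, occupies bases 102028180 to 102032027 of chromosome 15 in GRCm38, forward strand. It had 36 and 19 reads in controls, against 193 and 313 reads in *Cnot3*-cKO cells. In CPM these were 0.894 and 0.452 against 8.52 and 10.9. Both *Cnot3*-cKO libraries lay far above both controls, although they were the shallower ones. The mean was 0.673 ± 0.313 CPM in controls, against 9.72 ± 1.70 CPM in *Cnot3*-cKO cells (SD, n = 2 per group), 14.5-fold higher. The fitted log2 fold change was 3.85 (standard error 0.33). Among the 15519 genes averaging at least 1 on the log2 CPM scale it ranked first, as the choice of the gene requires, and it ranked 35 of all 23952 tested genes. *Krt18* passed this limit through its *Cnot3*-cKO libraries, as both controls lay under 1 CPM. Control replicate 2 had the lower of the control levels, and leaving out control replicate 1 gave a log2 fold change of 4.40.

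*Krt8*, the type II partner, runs from 101996698 to 102004482 on the reverse strand of chromosome 15 (ENSMUSG00000049382.10). It had 11 and 14 reads in controls, against 40 and 59 in *Cnot3*-cKO cells. The corresponding levels were 0.273 and 0.333 CPM against 1.77 and 2.06 CPM. The groups did not overlap. Counts this low carry counting error, so the SD of 2 libraries is a poor measure of the spread. *Krt8* was 6.31-fold higher, from 0.303 ± 0.0422 to 1.91 ± 0.208 CPM (SD, n = 2 per group), with a log2 fold change of 2.65 (standard error 0.51). A processed pseudogene, *Krt8-ps* on chromosome 7, is 98.6% identical to the *Krt8* transcript over 941 bases, and how reads that match both were counted is not stated. *Krt8-ps* had 2 and 0 reads in controls, against 11 and 15 in *Cnot3*-cKO cells. Counting both together gave 13 and 14 reads in controls, against 51 and 74 in *Cnot3*-cKO cells. *Krt8* is uncertain by at least this amount, since reads that match both may have been counted for neither gene. For *Krt18*, the pseudogenes *Gm5200*, *Gm17847* and *Gm7943* match over at least 971 bases at 83.1% to 90.2% identity, and all 3 had 0 reads in every library, which allows a level of up to 0.0713 to 0.132 CPM. A noncoding gene on the opposite strand over the start of *Krt8*, *Gm36026*, had 0 and 0 reads in controls, against 1 and 5 in *Cnot3*-cKO cells. The library kit marks strand, but whether the counting used strand is not stated.

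**Figure D1:**
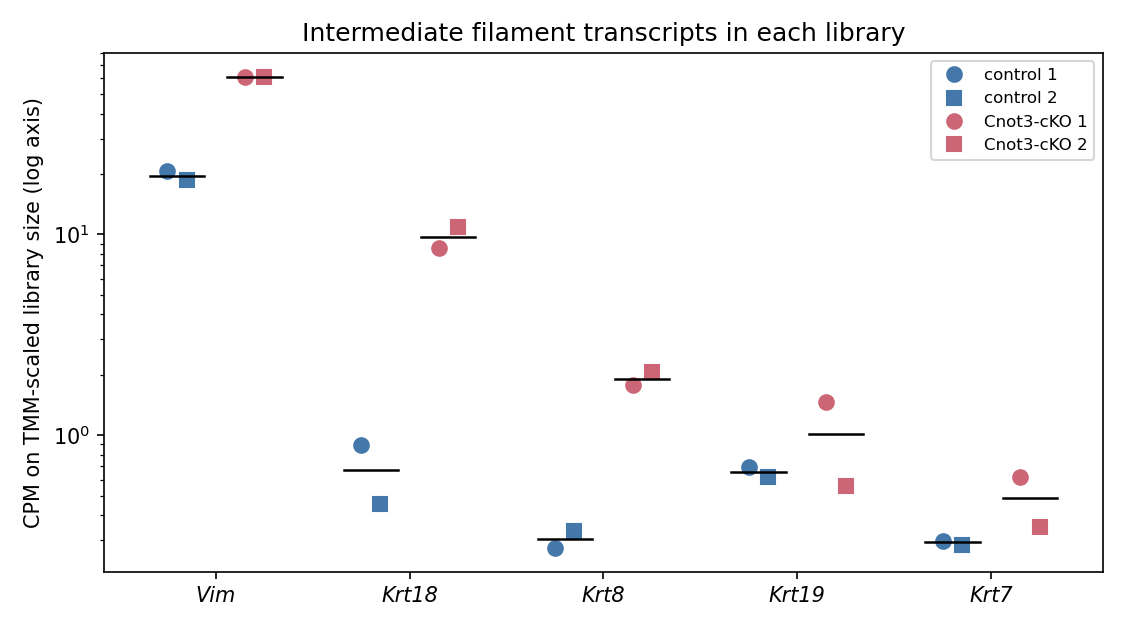
Level of each of the 5 genes in each library, in TMM-scaled CPM on a log axis. Points are single libraries (2 control, 2 *Cnot3*-cKO) and lines are group means. *Krt18* separates from 0.452 to 0.894 CPM in controls to 8.52 to 10.9 CPM in *Cnot3*-cKO cells, *Krt8* and *Vim* separate as well, and the *Krt19* points overlap.

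The ductal keratins did not separate in the same way. *Krt19*, a small type I keratin on chromosome 11 (100140810 to 100148665, reverse strand, ENSMUSG00000020911.14), had 28 and 26 reads in controls, against 33 and 16 in *Cnot3*-cKO cells. Its levels were 0.695 and 0.618 CPM in controls, against 1.46 and 0.559 CPM in *Cnot3*-cKO cells. *Cnot3*-cKO replicate 1 was above both controls and replicate 2 below both, so the groups overlapped. The log2 fold change was 0.60 (standard error 0.59), and it was -0.24 without *Cnot3*-cKO replicate 1. *Krt7*, a type II keratin on chromosome 15 (101411043 to 101430313, forward strand, ENSMUSG00000023039.17), had 12 reads in each control and 14 and 10 in *Cnot3*-cKO cells. Scaled to depth this was 0.298 and 0.285 CPM against 0.618 and 0.349 CPM, without overlap. The log2 fold change was 0.71 (standard error 0.73), and it was 0.25 without *Cnot3*-cKO replicate 1. These values rest on 10 to 14 reads per library, and the standard error was as large as the difference. *Gm671*, an antisense gene that overlaps *Krt7*, had at most 2 reads in any library.

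*Vim* (ENSMUSG00000026728.9), the type III filament gene, occupies bases 13573927 to 13582826 of chromosome 2, forward strand. It was the most abundant of the 5, with 828 and 782 reads in controls, against 1372 and 1749 reads in *Cnot3*-cKO cells. These were 20.6 and 18.6 CPM against 60.6 and 61.1 CPM. Both groups were tight and far apart. *Vim* was 3.11-fold higher, from 19.6 ± 1.39 to 60.8 ± 0.36 CPM (SD, n = 2 per group), with a log2 fold change of 1.64 (standard error 0.12). Its rank by log2 fold change was 262 among those same 15519 genes.

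By the call rule, 3 of the 5 members (*Krt18*, *Krt8* and *Vim*) were called higher, where 4.03% of all tested genes were called higher. None was called lower, where 0.735% of all tested genes were. In 4 of the 5, each *Cnot3*-cKO library was above each control, where 30.5% of tested genes lay so and 28.6% lay below both controls. Nothing is read from these counts, or from the calls under the alternatives given next. The members were chosen on the same contrast, and the alternatives reuse its libraries. *Krt18* and *Vim* were called higher under each of the 18 alternatives, and *Krt8* under 16. *Krt8* was not called with glmTreat, which tests for a fold change above 2 directly, and it was not tested at a mean count of at least 50. *Krt19* and *Krt7* were called under none of them.

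Levels of different genes were compared as CPM per kilobase of merged exons. In controls *Vim* came first at 4.13 ± 0.294, followed by *Krt18* at 0.468 ± 0.218, *Krt19* at 0.354 ± 0.0294, *Krt8* at 0.155 ± 0.0219 and *Krt7* at 0.0414 (SD, n = 2). *Krt18* (0.622 and 0.314) and *Krt19* (0.375 and 0.333) did not differ beyond the spread of *Krt18* there. In *Cnot3*-cKO cells *Vim* had 12.8 ± 0.0759 and *Krt18* had 6.77 ± 1.19 CPM per kilobase, and *Krt8* at 0.977 ± 0.106 was now listed before *Krt19* at 0.543 ± 0.342. The *Krt8* libraries (0.902 and 1.05) lay above the *Krt19* libraries (0.785 and 0.301), and the gap between the nearest of them was smaller than the SD of *Krt19*. This order depends on the length used. Per kilobase of the longest coding transcript, *Krt19* had 0.924 and 0.354 in *Cnot3*-cKO cells and overlapped *Krt8*. Among the tested genes ordered by this level, *Krt18* stood at the 21.8 percentile in controls and at the 68.2 percentile in *Cnot3*-cKO cells. The matching percentiles were 7.88 and 31.8 for *Krt8* and 59.1 and 80.4 for *Vim*.

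Since a type I keratin needs a type II partner, the ratio of the pair was followed in each library. *Krt18* to *Krt8*, per kilobase, was 4.46 and 1.85 in controls, against 6.57 and 7.23 in *Cnot3*-cKO cells. The *Krt18* value was the higher one in all 4 libraries. The control ratios rest on 36 and 19 *Krt18* reads and on 11 and 14 *Krt8* reads, so an excess in controls is uncertain. How reads that match both *Krt8* and *Krt8-ps* were counted is not stated, and this adds to the uncertainty of the ratio in every library. *Vim* to *Krt18* was 6.97 and 12.5 in controls, against 2.15 and 1.69 in *Cnot3*-cKO cells. *Vim* stayed above *Krt18* in every library, with a smaller margin in *Cnot3*-cKO cells. The size of this ratio depends on the length used, because the merged *Vim* exons are longer than its coding transcript. With the longest coding transcript of each gene, the ratio was 21.1 ± 8.41 in controls, against 4.16 ± 0.707 in *Cnot3*-cKO cells (SD, n = 2).

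All 54 keratin genes together had 840 and 757 reads in controls, against 879 and 1135 in *Cnot3*-cKO cells. *Krt18* made up 4.29% of them in control replicate 1 (95% Wilson interval 3.11% to 5.88%) and 2.51% in control replicate 2 (1.61% to 3.89%). It made up 22% in *Cnot3*-cKO replicate 1 (19.3% to 24.8%) and 27.6% in *Cnot3*-cKO replicate 2 (25.1% to 30.2%). These intervals cover counting error only, and they are too narrow if the mates of a pair were counted separately. Low counts were even more often than odd in every library, as such counting would give, and whether it was used is not stated. *Krt8* made up 1.58% ± 0.382 in controls, against 4.88% ± 0.46 in *Cnot3*-cKO cells (SD, n = 2), and the shares of *Krt19* and *Krt7* overlapped between the groups. The 50 other keratins were not constant, with 18.7 and 16.3 CPM in controls, against 26.4 and 25.7 CPM in *Cnot3*-cKO cells.

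**Figure D2:**
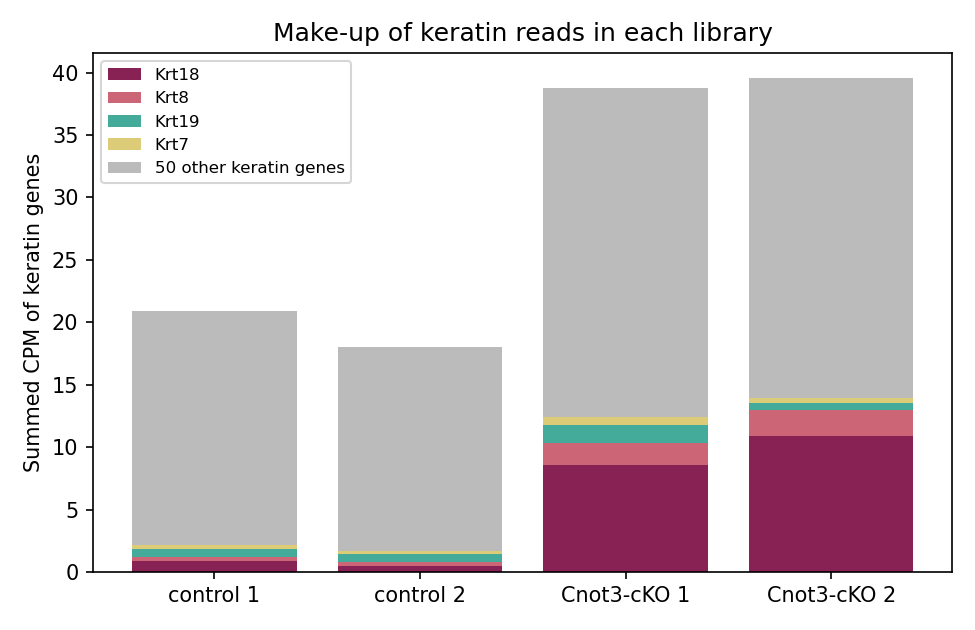
Summed level of the keratin genes in each library, in TMM-scaled CPM, stacked by *Krt18*, *Krt8*, *Krt19*, *Krt7* and the 50 other keratins. The total is 20.9 and 18 CPM in controls, against 38.8 and 39.6 CPM in *Cnot3*-cKO cells, and *Krt18* is 22% and 27.6% of reads in the latter.

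Most of the other keratins belong to stratified epithelium and hair. Of the 50, 20 had at most 3 reads in every library, and 12 were tested. None of the 12 was called higher or lower with edgeR, and DESeq2 called 0 as well. At an unadjusted p under 0.05, 4 were higher and 1 was lower. The share of all tested genes at this limit is not given, so nothing is read from this count or later ones of its kind. Their median log2 fold change was 0.80, against 0.01 over all tested genes, and it ranged from 0.174 to 1.06 over the alternatives. The most abundant was *Krt222*, with 3.8 ± 0.169 CPM in controls, against 7.35 ± 0.524 CPM in *Cnot3*-cKO cells (log2 fold change 0.95, adjusted p = 0.01101). *Krt222* was called when scaling used library size only or the pan-germ cell genes. *Krt75*, a hair follicle keratin, had a log2 fold change of 1.85 (adjusted p = 0.01922), and it was called with no expression filter, at an adjusted p under 0.05 and without *Cnot3*-cKO replicate 1. The log2 fold changes of the remaining tested keratins were 1.80 for *Krt26*, 1.09 for *Krt17*, 1.01 for *Krt27*, 0.82 for *Krt23*, 0.79 for *Krt25*, 0.14 for *Krt10*, -0.09 for *Krt73*, -0.12 for *Krt12*, -0.73 for *Krt24* and -1.31 for *Krt20*. The adjusted p of these 10 was between 0.1091 and 0.9676.

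The other intermediate filament genes cover the remaining type III proteins, neurofilaments, nestin and synemin, and the lamins of the nuclear envelope. Of 17 listed, 14 were tested, 2 rose and 0 fell, with a median log2 fold change of 0.16 (0.01 over all tested genes). *Lmna*, which encodes the A-type lamins, had 3.63 and 4.97 CPM in controls, against 17.2 CPM in both *Cnot3*-cKO libraries. It rose by 2.0 on the log2 scale (standard error 0.21, edgeR, adjusted p = 5.377e-05). *Nefm*, the medium neurofilament subunit, rose by 1.63 (standard error 0.26, adjusted p = 0.00095), from 660 and 319 reads in controls to 828 and 1078 in *Cnot3*-cKO cells. Its controls lay apart, at 16.4 and 7.58 CPM, its log2 fold change ranged from 1.17 to 2.27 as single libraries were left out, and neither form of DESeq2 called it. At the same adjusted p without reaching the fold change limit, *Synm* had a log2 fold change of 0.62, *Nes* -0.44 and *Iffo2* -0.82. *Lmnb1*, the B-type lamin and most abundant of the list, had 89.1 ± 8.62 and 92.0 ± 6.30 CPM (adjusted p = 0.8116). *Des*, the type III filament of muscle, had 1.59 ± 0.0319 and 2.63 ± 0.476 CPM (adjusted p = 0.1536). At an unadjusted p under 0.05, 3 of the 14 were higher and 2 lower, and DESeq2 called 1 higher and 0 lower.

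**Figure D3:**
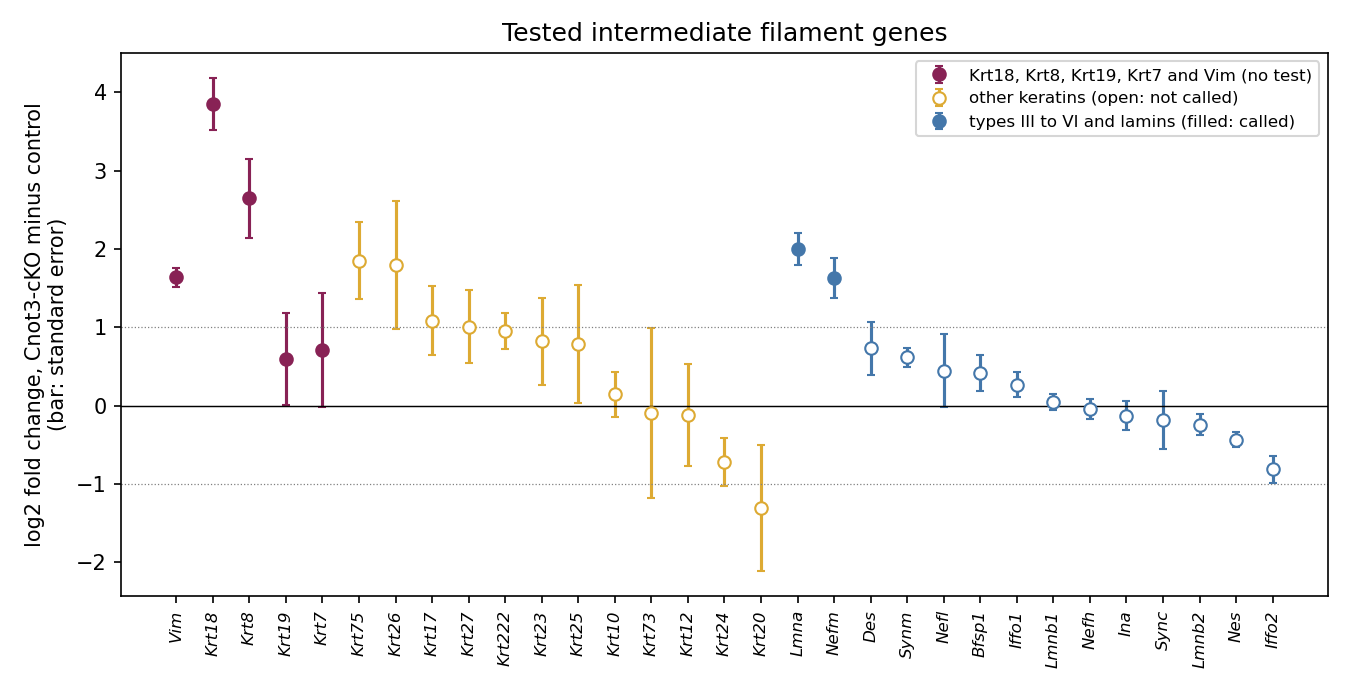
Fitted log2 fold change of *Cnot3*-cKO against control cells with its standard error, for the 5 members and for the tested genes of the other filament lists, from 4 libraries. The vertical axis is the log2 fold change, and *Krt18* at 3.85 and *Krt8* at 2.65 are the highest points. *Lmna* and *Nefm* are the called genes of the other filament types, and open points are genes not called. Members carry no test.

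Keratin filaments end at desmosomes and are linked to other structures by plakins. Of 22 such genes, 20 were tested, 4 rose and 0 fell, with a median log2 fold change of 0.44 (0.01 over all tested genes). *Dsp*, the desmoplakin that joins keratin filaments to desmosomes, had 5.16 and 3.35 CPM in controls, against 20.5 and 17.1 CPM in *Cnot3*-cKO cells. It rose by 2.14 on the log2 scale (standard error 0.23, edgeR, adjusted p = 6.506e-05). The desmosomal cadherins *Dsc2* and *Dsc3* rose by 1.70 (standard error 0.21, adjusted p = 0.0001982) and 1.46 (standard error 0.29, adjusted p = 0.003697). *Fam83h*, which organises keratin filaments in epithelial cells, rose by 1.39 (adjusted p = 0.003929). *Dsc3* was not called without *Cnot3*-cKO replicate 2. The plaque genes *Jup* and *Pkp2* had log2 fold changes of 0.79 and 0.75 and stayed under the fold change limit, as did *Dst*, the most abundant of the list, at 582 ± 110 and 833 ± 34.4 CPM. *Dsg1a* had at most 3 reads in every library. At an unadjusted p under 0.05, 11 of the 20 were higher and 2 lower, and DESeq2 called 4 higher and 0 lower. When glmTreat required a fold change above 2, only *Dsp* was still called.

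A further list held transcription factors known to act on keratin or vimentin genes, namely AP-1, ETS, KLF and EMT factors and related proteins. Of 22 listed, 20 were tested, 6 rose and 0 fell, with a median log2 fold change of 0.18 (0.01 over all tested genes). *Elf3*, an epithelial ETS factor, had 4 and 6 reads in controls, against 30 and 37 in *Cnot3*-cKO cells, and it rose by 3.39 (standard error 0.66, edgeR, adjusted p = 0.003458). The AP-1 genes *Junb*, *Fosb*, *Fos* and *Jun* rose by 2.30, 1.79, 1.41 and 1.33 on the log2 scale, with adjusted p of 0.002995, 0.0001522, 0.0001874 and 0.0003675. *Cnot3*-cKO replicate 2 was the higher one for all 4, most of all for *Junb*, with 2.03 CPM in replicate 1 and 4.40 CPM in replicate 2. *Junb* was not called without *Cnot3*-cKO replicate 2. *Zeb2*, a repressor of epithelial genes that binds CACCTG, rose from 26.4 ± 7.65 to 77.3 ± 4.62 CPM (log2 fold change 1.55, adjusted p = 6.096e-05). *Ets1*, the most abundant, had 95 ± 4.87 and 88.3 ± 4.78 CPM. At an unadjusted p under 0.05, 9 were higher and 2 lower, DESeq2 called 6 higher and 0 lower, and none was called under glmTreat. AP-1 genes also respond to tissue dissociation, and the part of that response in the differences of the filament genes was not tested.

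*Krt18* and *Krt8* stand at the end of the type II keratin cluster of chromosome 15, their GENCODE starts 23698 bases apart. The nearest tested genes were compared with them. *Eif4b*, a translation initiation factor gene that starts 45.6 kb beyond the start of *Krt18*, had 345 ± 3.81 CPM in controls, against 347 ± 15.0 CPM in *Cnot3*-cKO cells (log2 fold change 0.01, edgeR, adjusted p = 0.954). *Tns2*, at 72.2 kb, had a log2 fold change of 0.30 (adjusted p = 0.2393), and *Spryd3*, at 108.1 kb, had -0.47 (adjusted p = 0.01572). On the keratin side, *Krt73* at -225.8 kb had -0.09 (adjusted p = 0.9676), and *Krt75* at -454.3 kb had the value given above. None of these 5 neighbours was called. DESeq2 called 0 of the 5 as well, and at an unadjusted p under 0.05 edgeR had 1 higher and 1 lower.

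**Figure D4:**
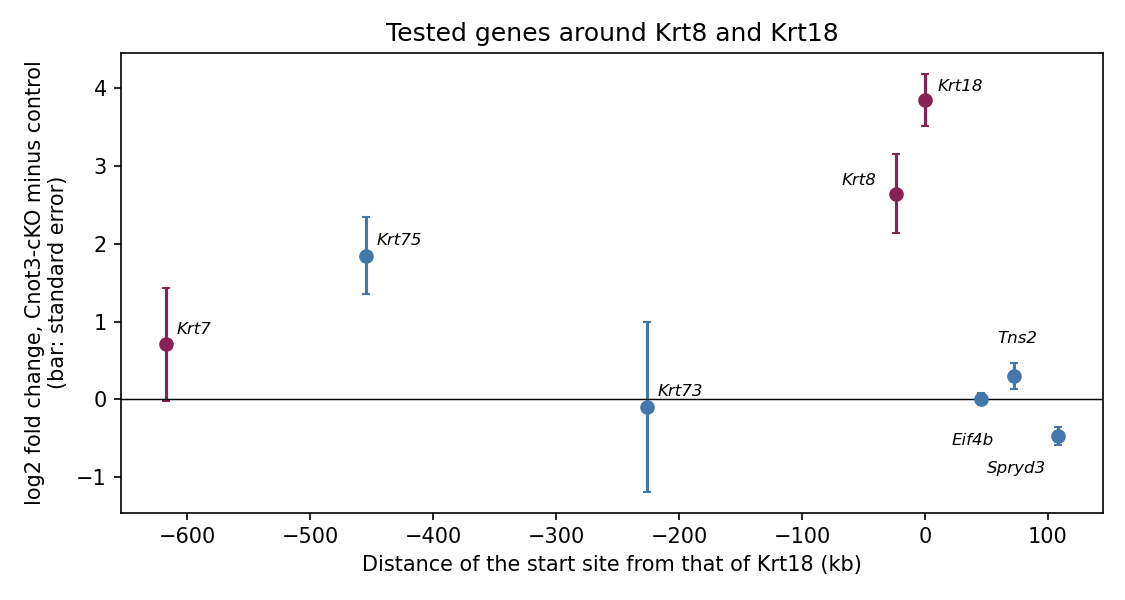
Log2 fold change with its standard error (vertical axis) of the tested genes around *Krt8* and *Krt18*, by the distance of their start from the start of *Krt18* in kilobases (horizontal axis). *Krt18* and *Krt8* lie at 3.85 and 2.65, and *Eif4b*, the next gene, lies at 0.01.

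Since CCR4-NOT acts on mRNAs, often through elements in their 3′ ends, the 3′ UTR of the longest coding transcript of each gene was described. It is 66 bases in *Krt18*, 103 in *Krt19*, 242 in *Krt8*, 312 in *Vim* and 2648 in *Krt7*, where the median of 20869 genes is 946. All but *Krt7* are under the median, *Krt19*, which was not called, included. The pentamer ATTTA, the core of AU-rich elements, occurs 0 times in those of *Krt18*, *Krt19*, *Krt8* and *Vim* and 13 times in that of *Krt7*. Among 3′ UTRs of similar length, 7.46% hold it for *Krt18*, 14.2% for *Krt19*, 30.7% for *Krt8*, 39.5% for *Vim* and 95% for *Krt7*. The Pumilio motif TGTANATA occurs in none of the 5, and it is rare in 3′ UTRs of such lengths, with 2.19% to 6.92% holding it for the 4 short ones and 41.6% for *Krt7*.

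The genes whose levels over the 4 libraries were most like those of *Krt18* were sought among 15518 genes by the root mean square difference of log2 CPM, each centred on its own mean. *Hsd17b1*, *Sel1l3* and *Islr2* came closest, at 0.569, 0.602 and 0.603. These distances are large, since the difference of *Krt18* between the groups exceeded that of each of the 3. *Hsd17b1* had 2.18 and 1.52 CPM in controls, against 15.2 and 11.6 CPM in *Cnot3*-cKO cells, with the order of the *Cnot3*-cKO libraries the opposite of that of *Krt18*. For *Vim*, *Manba*, *Anxa3* and *Nfkbia* came closest, at 0.0387, 0.0396 and 0.0399. With 4 libraries in 2 groups this likeness rests mostly on the difference between the groups.

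Filament genes are also cell type markers, so the levels of other cells in the sort are given beside them. Of 16 Sertoli cell markers, 14 rose and 0 fell, with a median log2 fold change of 1.88 (0.01 over all tested genes). *Amh*, *Dhh* and *Sox9* rose by 2.62, 2.39 and 2.23, *Ctsl* by 1.23 and *Clu*, the most abundant, by 1.69, while *Rhox5* (log2 fold change 0.18, adjusted p = 0.7718) and *Rhox8* (2.35, adjusted p = 0.01565) were not called. *Rhox8* was called under 8 of the 18 alternatives, both forms of DESeq2 among them. The log2 fold change of *Vim* was within the range of the called markers and that of *Krt8* was close to that of *Amh*, while *Krt18* lay above them by the way it was chosen. Per 1000 reads of the 16 markers there were 1.90 and 0.947 *Krt18* reads in controls, against 5.85 and 7.49 in *Cnot3*-cKO cells. For *Krt8* there were 0.581 and 0.698 in controls, against 1.21 and 1.41 in *Cnot3*-cKO cells. For *Vim* there were 43.8 and 39.0 in controls, against 41.6 and 41.9 in *Cnot3*-cKO cells, so the groups overlapped. The place of *Vim* relative to Sertoli cell markers depended on which markers were counted. Without *Clu* and *Ctsl*, the most abundant markers, *Krt18* had 3.94 ± 1.68 and 15.8 ± 1.91 reads per 1000, *Krt8* 1.80 ± 0.325 and 3.12 ± 0.177, and *Vim* 116 ± 3.54 and 99.5 ± 4.95 (SD, n = 2 per group). With these markers left out, the *Vim* groups did not overlap, and both *Cnot3*-cKO libraries were lower than the controls. The ratios of *Krt18* and *Krt8* are descriptions of genes chosen for their increase. The part of Sertoli cell RNA in the higher filament transcripts was not tested beyond these ratios.

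**Figure D5:**
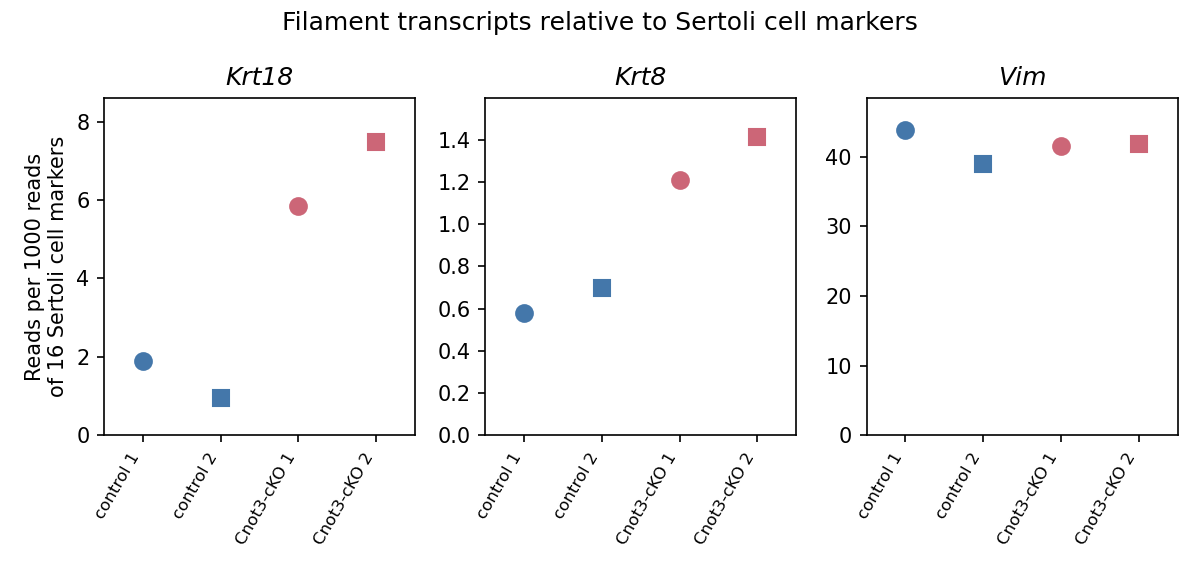
Reads of *Krt18*, *Krt8* and *Vim* per 1000 reads of the 16 Sertoli cell markers in each library, points being single libraries. *Krt18* is at 0.947 to 1.90 in controls, against 5.85 to 7.49 in *Cnot3*-cKO cells, while *Vim* is between 39.0 and 43.8 in all 4 libraries.

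Markers of other cells that use these filaments moved less or in part. Macrophages and endothelial cells, both rich in vimentin, had 7 of 9 and 2 of 5 tested markers called higher and 0 lower, with median log2 fold changes of 1.21 and 0.48. Without control replicate 2, which had the lower macrophage marker level of the controls, 3 of the 9 macrophage markers were called. *C1qc*, *C1qa* and *Mrc1* rose by 1.65, 1.57 and 1.39, *Cd68* by 1.02, *Pecam1* by 1.18 and *Kdr* by 1.17. Without *Cnot3*-cKO replicate 1, *Kdr* and *Cd68* were not called. *Tek*, the most abundant endothelial marker, had 8.84 ± 1.72 CPM in controls, against 12.3 ± 1.52 CPM in *Cnot3*-cKO cells. Summed macrophage markers had 209 and 132 CPM in controls, against 468 and 382 CPM in *Cnot3*-cKO cells, and endothelial markers 25.9 and 22.6 against 37.6 and 43.4 CPM. Of the 6 tested Leydig cell markers, *Cyp11a1*, *Cyp17a1*, *Hsd3b1* and *Lhcgr* rose, and the sum was 368 and 323 CPM in controls, against 831 and 897 CPM in *Cnot3*-cKO cells, with *Insl3* at 3 reads or fewer in every library. Interstitial fibroblast markers, headed by *Col3a1*, summed to 520 and 492 CPM in controls, against 605 and 731 CPM in *Cnot3*-cKO cells, and peritubular myoid markers, headed by *Mylk*, to 47.3 and 52.6 against 51.9 and 58.1 CPM. Of 7 tested markers in each of these lists edgeR called 0 and DESeq2 called 0, with 4 and 1 higher at an unadjusted p under 0.05. *Dcn*, *Pdgfra*, *Col3a1* and *Acta2* passed the adjusted p in edgeR without reaching the fold change limit, with log2 fold changes of 0.64, 0.60, 0.50 and 0.94. For keratin-bearing epithelia, the 3 tested markers of rete testis and ducts, headed by *Pax8*, summed with the rest of their list to 4.10 and 4.40 CPM in controls, against 7.64 and 6.01 CPM in *Cnot3*-cKO cells, with 0 called by edgeR or DESeq2 and 1 higher at an unadjusted p under 0.05. Mesothelial markers summed to 162 and 161 CPM in controls, against 148 and 138 CPM in *Cnot3*-cKO cells, 1 of 6 was called lower (*Rspo1*, log2 fold change -1.47, adjusted p = 0.007808, called under 12 of the 18 alternatives), and *Upk3b* had 2 to 4 reads per library. *Rspo1* was not called without control replicate 2, without *Cnot3*-cKO replicate 2, under glmTreat or with upper quartile, library size or pan-germ cell scaling. Most of the mesothelial sum was *Bnc1*, at 125 ± 1.83 and 107 ± 6.28 CPM. Without *Bnc1* the mean sum was 37 CPM in controls, against 35.5 CPM in *Cnot3*-cKO cells. Which cells the *Bnc1* reads came from was not tested, so the full sum is no measure of mesothelial cells. The part of these cells in the filament differences was not tested.

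Among germ cell genes, edgeR and DESeq2 called 0 of 10 pan-germ cell genes, of which 5 were lower and 0 higher at an unadjusted p under 0.05. *Mov10l1*, *Piwil2* and *Tdrkh* were lower at an adjusted p under 0.01 in edgeR, with log2 fold changes of -0.49, -0.44 and -0.44, under the fold change limit. *Dazl* had 2487 ± 209 CPM in controls, against 2144 ± 169 CPM in *Cnot3*-cKO cells. Of 10 undifferentiated spermatogonia markers, which summed to 1795 and 1601 CPM in controls, against 1314 and 1323 CPM in *Cnot3*-cKO cells, *Id4* rose by 1.04 and *Lin28a* fell by 1.09 on the log2 scale. Without control replicate 2 or *Cnot3*-cKO replicate 2, *Id4* was not called, and *Lin28a* was not called when scaled to pan-germ cell genes. *Zbtb16*, the most abundant, had a log2 fold change of -0.82 and did not reach the fold change limit. Also under that limit at the same adjusted p in edgeR were *Gfra1* at 0.90, *Etv5* at 0.54, *Sall4* at -0.42 and *Foxo1* at -0.87. The markers thus went in both directions, with a median log2 fold change of -0.06 (0.01 over all tested genes), although their sum was lower. Scaled to the pan-germ cell genes in place of all genes, the median log2 fold change of all tested genes was 0.20, and *Krt18*, *Krt8* and *Vim* kept their direction, with *Krt8* at 2.83 and *Vim* at 1.82.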

How the data were processed

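RNA-seq libraries of sorted ID4-EGFP+ cells, 2 per group, had been made with a stranded total RNA kit. The authors used STAR on mm10 and featureCounts with GENCODE M24, and the deposited values were unnormalized read counts per gene symbol. Options for strand and for multiply matching reads are not given in the sources used here. Of genes with 1 to 20 reads, 61.8% to 65.1% had an even count in each library.

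Counts were compared with edgeR 4.0.16 in R 4.3.3 (TMM scaling, default expression filter, quasi-likelihood F test, no covariates, Benjamini-Hochberg adjustment over 23952 genes). The study used DESeq2, and DESeq2 1.42.0 was an alternative here. Calls used its thresholds, a fold change above 2 at an adjusted p under 0.01. The biological coefficient of variation was 0.145. A count of 3 reads was taken as the floor. Symbols of 23345 of the tested genes matched GENCODE M21, which gave coordinates and lengths. Promoters came from RefSeq.

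The members and lists were chosen with earlier results of these data known. The members, the targeted gene, all tested other keratins, the neighbours, copies and overlapping genes, the 3 most similar genes to *Krt18* and *Vim*, the called genes of each list (the 3 largest and 1 smallest where over 6 were called) and its most abundant gene were named. Genes of the lists named as under the fold change limit, and *Rhox5*, *Rhox8*, *Des*, *Dsg1a*, *Insl3* and *Upk3b*, were chosen after their values were seen. Lists covered other intermediate filaments, filament linkers and desmosomes, regulators, and markers of Sertoli, Leydig, peritubular myoid, mesothelial, rete testis and duct, fibroblast, endothelial, macrophage, pan-germ and undifferentiated spermatogonial cells. The 18 alternatives covered scaling, filter, DESeq2, a replicate block, thinning to the smallest library, thresholds, glmTreat and leaving out each library, and counts divided by 2, which was chosen after seeing the data. Scripts were tested on simulated data. Matplotlib 3.10.9 in Python 3.11.15 drew the figures.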

Additional observations from a re-analysis of the deposited data

How the results depend on the processing

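*Krt18*, *Krt8* and *Vim* kept their direction under all alternatives that tested them. With single libraries left out, the log2 fold change ranged from 3.43 to 4.40 for *Krt18*, from 2.50 to 2.78 for *Krt8*, from 1.55 to 1.69 for *Vim*, from 0.248 to 1.07 for *Krt7* and from -0.24 to 1.14 for *Krt19*, which turned negative without *Cnot3*-cKO replicate 1, and 943 to 1225 genes were called higher and 217 to 271 lower. DESeq2 with a fold change prior, which shrinks low-count genes, gave 3.03 for *Krt18*, 1.43 for *Krt8* and 0.23 for *Krt7*. Scaling to pan-germ cell genes gave 2.83 for *Krt8* and 1.82 for *Vim*, with 1297 genes called higher and 80 lower. Thinning gave 2.89 for *Krt8*. Genes called lower were 285 with no filter. An adjusted p under 0.05 called 1452 higher and 284 lower, no fold change limit 1488 and 1125, and glmTreat 87 and 5. The higher share of calls was 84.6% in the main comparison, 56.9% with no fold change limit and 94.6% under glmTreat. Library numbers were shared by the groups, and deviations of same-numbered libraries correlated at 0.0822 over 15519 genes. With 2 libraries per group, this value cannot tell whether same-numbered libraries were prepared together. A replicate block gave 3.87 for *Krt18*, 2.64 for *Krt8*, 1.64 for *Vim*, 0.49 for *Krt19* and 0.675 for *Krt7*, with 1155 genes called higher and 217 lower. Dividing counts by 2 gave 3.83, 2.6 and 1.64 for *Krt18*, *Krt8* and *Vim*. *Krt7* could not be tested there, under thinning or at a mean count of at least 50, which also removed *Krt8* and *Krt19*. Of the marker lists, glmTreat called 8 Sertoli markers and 0 Leydig, macrophage and endothelial markers. *Krt7* had 10 to 14 reads per library, *Krt8* 11 and 14 in controls, and *Krt19* 33 and 16 in the *Cnot3*-cKO libraries, so single libraries weigh heavily on them. Groups of 2 libraries were too small to test for outliers.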
